A study of Saccharomyces cerevisiae with 2 samples.

Results

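The ORFs described here lie near the ends of the yeast chromosomes and carry only a systematic symbol in the deposited gene table of strain BYZ1. A member had a symbol that starts with the systematic form (Y, a letter for the chromosome, L or R for the arm, a number, and W or C for the strand). Its start was below 30000, or its end was within 30000 bp of the largest gene end listed on its chromosome. Distances on right arms thus run from that gene end, which can lie short of the chromosome end. Of 895 genes with a systematic symbol in that table, 104 met the rule, with 1 further ORF left out by the rule itself. The table holds 5671 genes, and 5699 genes were listed over both strains. The 104 ORFs sat on 31 chromosome ends and all 16 chromosomes. By gene identifier 103 of the 104 matched the R64 gene table, each with the same coding length, and 28 of them now have a standard name there, so the label of "systematic name only" holds for the deposited table and not for the current annotation.

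BYZ1 is a laboratory diploid (MATa/MATalpha) of S288c descent, homozygous for his3delta1, leu2delta0 and ura3delta0 and heterozygous for lys2delta0 and met15delta0. ZK2 is labelled a bioethanol strain, with no genotype given. Both were grown from an initial OD600 of 0.05 in 25 mL of a medium labelled YPD and taken in early stationary phase, and poly(A) RNA was sequenced. The labels give 1, 2 and 2 g/L of yeast extract, peptone and glucose for BYZ1 and 10, 20 and 20 g/L for ZK2. The paper on BYZ1 gives its YPD as 10, 20 and 20 g/L, so the BYZ1 label may be in error. If the labels hold, strain and medium cannot be told apart. Each strain has 1 library, so no test between strains could be had. Intervals of RPKM are exact Poisson and those of ratios exact conditional binomial (Clopper-Pearson), both at 95%. They cover counting error only and no variation between cultures. PCR copies cannot be told from separate molecules, so even the counting error may be understated. In bulk RNA, fewer cells with a transcript and less RNA per cell cannot be told apart.

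The ends of yeast chromosomes are built from repeated blocks. The outermost is the Y' element, which many ends carry and which encodes a helicase-like protein, and inside it lie members of gene families for sugar use, flocculation, cell wall proteins and small membrane proteins. Genes near telomeres can be silenced by the Sir proteins, and these regions differ between strains in which genes are present. Many of the ORFs there have near-identical copies on other ends, so that a short read often cannot be assigned to 1 gene.

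The tables hold 4687047 uniquely mapped gene reads for BYZ1 and 4571043 for ZK2, over 5671 and 5605 genes, with 5577 genes in both. Genes with no read are not listed. The BYZ1 label was checked on the genes deleted in it, and ZK2 has no genotype to check. *URA3* had 0 reads in BYZ1 and 123 in ZK2, and *LEU2* had 1 and 360. *HIS3*, of which his3delta1 removes a part, had 156 and 159, with coverage of 67.4% and 98.9%. Of the genes deleted on 1 homolog in BYZ1, *LYS2* had 451 reads in BYZ1 and 993 in ZK2. The other, *MET17*, had 145 and 43. Genes with 1 read had 49 covered bases, in all 42 cases in BYZ1 and all 45 in ZK2, which gives the read length. Expression is given as RPKM, the reads per unit of coding length and of total gene reads. A gene was called at a 2-fold ratio of RPKM, up or down, if it had 20 reads in at least 1 library. A count of 0 was set to 3 reads, and such a ratio is a bound. Over the 5396 genes with 20 reads the median log2 ratio of ZK2 to BYZ1 was -0.18. Rescaling by the TMM factor adds 0.18 to every log2 ratio.

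Sequence was used to see how far a 49-base read could be assigned at all. Windows were compared by exact match, so near-identical windows counted as different. Reads of BYZ1 were placed with mismatches allowed, and the setting for ZK2 is not given. Fewer windows may thus be told apart by reads than these shares give. Of the 103 ORFs with an R64 sequence, 41 (39.8%) had under 80% of their 49-base windows at 1 place in the genome, against 3.57% of all genes, and 7 had no such window. The set below was chosen to show these shared stretches. The first is the most copied window of YBL113C, a helicase-like ORF of a Y' element, which was found 31 times in R64 and in 18 ORFs (minus strand, R64 chr2:1862-1910). The same letters were the most copied window of 5 of the ORFs. The second, from YEL076C (minus strand, R64 chr5:5039-5087), occurred 19 times. The third, from YAR068W (plus strand, R64 chr1:222686-222734), occurred 4 times, in YAR068W, YIL169C, the cell wall mannoprotein gene *HPF1* and a place on chromosome 8 with no annotated gene. The last is the end of YMR321C (minus strand, R64 chr13:917579-917627), which was found once more, in *SAM4*, a homocysteine methyltransferase gene. The sequences are from RefSeq R64 and read 5′ to 3′ on the strand of the ORF.
YBL113C: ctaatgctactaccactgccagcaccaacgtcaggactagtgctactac
YEL076C: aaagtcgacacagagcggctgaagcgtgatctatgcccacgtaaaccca
YAR068W: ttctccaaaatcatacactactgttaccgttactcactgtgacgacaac
YMR321C: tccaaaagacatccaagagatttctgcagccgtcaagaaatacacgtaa

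The deposited coverage was set against what unique reads could reach in R64. In 8 of the 103 ORFs the covered share of the coding length was more than 1 percentage point over what reads unique in the genome could reach. YAR068W, for example, was covered over 77.0% in BYZ1, where such reads reach 20.0%. Counted among annotated ORFs alone, 0 of the 103 went past the reachable share, and 33 of them had under 80% of windows unique. The read counts therefore behave as unique among genes, and a copy that lies outside the listed genes can add to a count. This comparison was chosen after the values were seen. The counts also carry no strand. Where ORFs overlap, as YBL112C and YBL113C do on the same strand, reads from the overlap cannot be separated.

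The subtelomeric ORFs had low read counts in both strains. Their median was 29 reads and an RPKM of 9.04 in BYZ1, and 19.5 reads and an RPKM of 6.69 in ZK2, where the median RPKM of all genes was 36.9 and 33.0. RPKM divides unique reads by the whole length, and the 62 ORFs with 80% or more unique windows had a median of 13.6 and 10.8, against 2.54 and 0.935 for the other 41 with sequence. In BYZ1 34 of the 104 had under 10 reads and in ZK2 46 did. Together they took 10204 reads (0.218%) in BYZ1 and 15425 (0.337%) in ZK2, but YIL169C alone gave 33.8% of the latter, and without it the shares were 0.207% and 0.223%. The median ORF was covered over 70.6% of its coding length in BYZ1 and 46.8% in ZK2. Genes with standard names in the same windows (236) had a median RPKM of 19.8 and 20.6, and the 790 ORFs with systematic symbols elsewhere 27 and 24.2.

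Of the 64 ORFs with 20 reads in at least 1 library, 11 were 2-fold or more higher in ZK2 (17.2%, where 8.17% of all genes were), 16 were lower (25.0%, where 11.7% of all genes were), and 37 lay within 2-fold. The other 40 had too few reads to be called. The shares of all genes, 8.17% higher and 11.7% lower, also belong beside the counts of lists and distance bins below. Reads in either library met the filter, so some ORFs were called with few or no reads in the other. The 104 ORFs had a median of 29 reads in BYZ1, against 229 for all genes, and ratios of few reads have more counting error. Its part in these shares was not tested. With a filter of 50 reads, 9 of 46 were higher and 9 of 46 lower, where 8.04% and 11.3% of all genes were. The median log2 ratio of the 64 was -0.05. Of the 207 tested genes with standard names in the same windows, 14.5% were higher and 25.6% lower, with a median of -0.18. The ORFs with systematic symbols elsewhere gave 7.88% and 16.6%. With the TMM factor the split of the 64 was 14 higher and 14 lower, and that of all genes turned from 441 higher and 629 lower to 597 (11.1%) and 421 (7.80%).

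**Figure D1:**
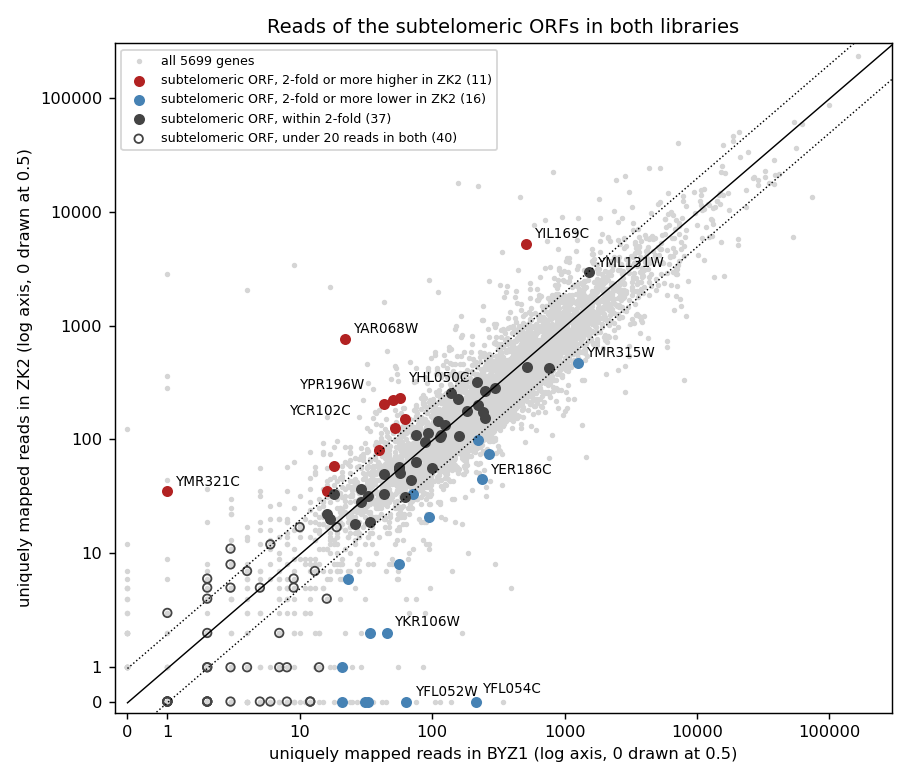
Uniquely mapped reads of every gene in BYZ1 (horizontal) and ZK2 (vertical), both on log axes with 0 drawn at 0.5. Grey points are all 5699 genes, large points the 104 subtelomeric ORFs (red higher, blue lower, dark within 2-fold, open under 20 reads in both), the solid line equal RPKM and the dotted lines 2-fold. YAR068W (22 and 766 reads), YMR321C (1 and 35) and YIL169C (513 and 5215) lie far above the lines, and YFL054C (213 and 0) far below.

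The 4 strongest of the subtelomeric ORFs in BYZ1 stood well above the rest, at an RPKM of 187 to 379. YCL057C-A, now *MIC10*, which encodes a core subunit of the complex that shapes mitochondrial cristae, had 522 reads in BYZ1 and 435 in ZK2, an RPKM of 379 and 324 (ratio 0.854, 95% interval 0.751 to 0.972). YML131W, a stress-induced ORF with likeness to medium-chain dehydrogenases, had 1521 and 2931 reads, an RPKM of 296 and 584, and its ratio of 1.98 (1.86 to 2.10) stayed just under 2-fold. Both were covered almost whole in each library, so these levels rest on reads from the full length of the ORF. YMR315W, which encodes an NADP(H) oxidoreductase regulated by Stb5, had 1258 reads in BYZ1 and 470 in ZK2. Its RPKM was 256 against 97.9, which made it 2.61-fold lower in ZK2 (ratio 0.383, 0.344 to 0.426). YOR385W, of unknown function, had 765 and 425 reads and an RPKM of 187 and 107, a ratio of 0.570 (0.505 to 0.642).

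Of the next 6 ORFs in the order of BYZ1 levels, 4 had nearly equal levels in the strains. YMR310C, now *UPA2* and placed with ribosome biogenesis, had 299 and 282 reads (RPKM 66.9 and 64.7). YLL056C, a target of the drug resistance factors Yrm1 and Yrr1, had 250 and 266 reads (59.5 and 64.9), and YIR035C, now *NRE1*, had 183 and 178 (51.0 and 50.9). YEL073C, on the left arm of chromosome 5 and regulated by inositol and choline, had 56 and 57 reads (36.9 and 38.5). The ratios of these 4 lay between 0.967 and 1.09, and each interval held 1. YER186C, of unknown function, and YPL277C, a copper-regulated membrane ORF, were the other members of the 10 strongest in BYZ1, and both were lower in ZK2. YER186C had 239 reads against 45, an RPKM of 55.4 against 10.7, and was 5.18-fold lower (ratio 0.193, 0.137 to 0.266). YPL277C had 269 reads against 74, an RPKM of 39.2 against 11.1, and was 3.55-fold lower (0.282, 0.215 to 0.366), with 38.6% of its windows shared with YOR389W and coverage of 77.5% and 43.6%.

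**Figure D2:**
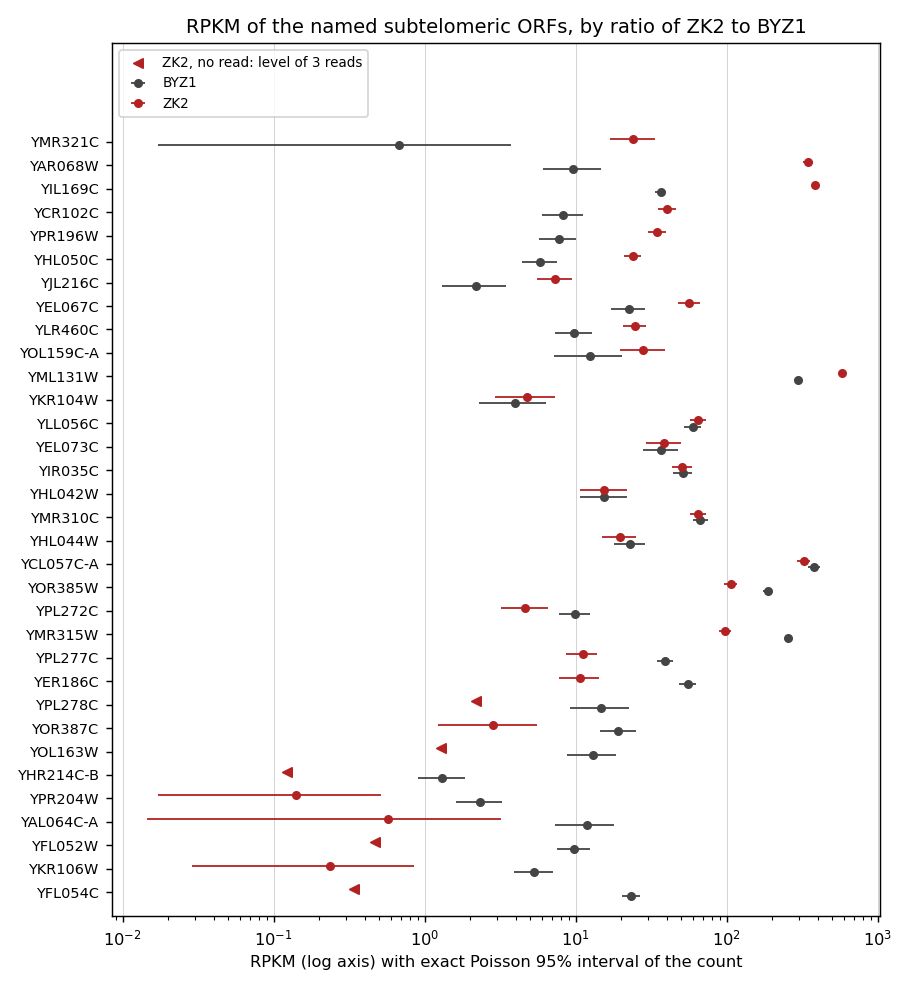
RPKM (log axis) of 33 ORFs chosen by the rule for named genes in BYZ1 (grey) and ZK2 (red), ordered by the ratio of ZK2 to BYZ1, with exact Poisson 95% intervals of the count. Triangles mark ORFs with no read in ZK2 at the level of 3 reads. YMR321C has the widest BYZ1 interval (0.0170 to 3.74) because it rests on 1 read.

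ORFs from the list of flocculins and wall proteins gave the largest ZK2 read counts among the 11 ORFs that were higher in ZK2. YIL169C (sacCer2 chromosome 9, 23119 to 26106, minus strand), now *CSS1*, is a serine- and threonine-rich ORF similar to *HPF1*. It had 513 reads in BYZ1 and 5215 in ZK2, an RPKM of 36.6 (33.5 to 39.9) against 382 (372 to 392), and was 10.4-fold higher (9.52 to 11.4). More reads lay on fewer bases, since coverage was 83.9% in BYZ1 and 74.6% in ZK2, and the mean depth over the covered bases went from 10.0 to 115. *HPF1*, with which YIL169C shares 7.01% of its windows, had 20935 and 50241 reads, a log2 ratio of 1.30.

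YAR068W (chromosome 1, 222397 to 222882, plus strand), described as fungal-specific and induced in respiratory-deficient cells, had 22 reads in BYZ1 and 766 in ZK2. Its RPKM was 9.66 (6.05 to 14.6) against 345 (321 to 370), a ratio of 35.7 (23.4 to 57.3), and coverage was 77.0% and 95.9%. Of its 438 windows, 389 also occurred on chromosome 8 outside any R64 gene, and reads from that place cannot be told from its own. Of the 13 ORFs in the list of flocculin, wall protein and PAU-related ORFs, 5 had 20 reads, 2 were higher and 1 lower, with a median log2 ratio of 0.58. The lower one, YPL272C (72 and 33 reads, ratio 0.470, 0.301 to 0.719, within 2-fold under the TMM factor), now *PBI1* and induced by ketoconazole, is not known as a wall protein, nor is the copper-regulated YOR389W. The 5 short ORFs of this list on the right arm of chromosome 8 (YHR212W-A, YHR213W, YHR213W-A, YHR213W-B and YHR214C-D) had 3 to 12 reads in BYZ1 and 0 to 7 in ZK2.

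An ORF like a maltose activator and a pair of isomaltase genes were higher in ZK2, at low levels. YPR196W (chromosome 16, 931372 to 932784, plus strand) is a putative maltose activator, of the zinc cluster family that switches on maltose permease and maltase genes. It had 51 reads in BYZ1 and 223 in ZK2, an RPKM of 7.70 against 34.5, and was 4.48-fold higher (3.29 to 6.20) with coverage of 70.2% and 95.7%. Of its windows 5.86% also lie in *MAL33*, which had 164 and 1207 reads. How far reads of *MAL33* were counted on YPR196W was not tested. YJL216C, now the isomaltase gene *IMA5*, had 18 and 58 reads, an RPKM of 2.20 against 7.27 (ratio 3.30, 1.92 to 5.96). YOL157C, now *IMA2*, had 40 and 80 reads and a ratio of 2.05 (1.39 to 3.08), but 40.5% of its windows were unique and 56.7% also lie in *IMA4*, and its coverage was 43.1% in BYZ1 and 31.0% in ZK2.

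Of the 8 ORFs in the list of other enzymes, 7 had 20 reads, 1 was higher (YJL216C) and 1 lower, with a median log2 ratio of -0.12. The lower one, YOR387C, is a zinc-regulated ORF and not a known enzyme. It had 56 reads in BYZ1 and 8 in ZK2, an RPKM of 19.2 against 2.82, and was 6.83-fold lower (ratio 0.146, 0.0603 to 0.309), with coverage of 89.0% and 42.7%. Of the 5 ORFs in the list of DNA-binding factors 1 was higher (YPR196W) and 2 were lower, with a median log2 ratio of -0.53. The lower ones were YFL052W, described with the left arm of chromosome 6, and YER187W (23 and 6 reads, ratio 0.267, 0.0891 to 0.676), which is known only as induced in respiratory-deficient cells.

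A pair of related reductase-like ORFs on different chromosomes were both higher in ZK2. YCR102C (chromosome 3, 304358 to 305464, minus strand), tied to copper metabolism and similar to a fungal toxD gene, had 43 and 204 reads in BYZ1 and ZK2. Its RPKM was 8.29 against 40.3, which made it 4.86-fold higher (3.49 to 6.93), and coverage was 58.6% and 89.5%. YLR460C (chromosome 12, 1059755 to 1060885, minus strand), of the quinone oxidoreductase family, had 52 and 127 reads. Its RPKM was 9.81 against 24.6, a ratio of 2.50 (1.80 to 3.53), with coverage of 71.0% and 91.2%. They share 17.9% of the windows of YCR102C and 18.6% of those of YLR460C, so by exact match most windows of each were unique. With mismatches allowed in placing reads, some reads of either ORF may have been counted on the other. How far the rises of YCR102C and YLR460C are separate was not tested.

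The promoters of this pair are shown because the pair moved the same way and the sequences are almost one. Both are RefSeq R64 windows from 250 bases before to 50 after the start codon, minus strand (YCR102C at R64 chr3:305418-305717 and YLR460C at R64 chr12:1060838-1061137). Capitals mark 2 motifs. The first, TTACTAA, is known as a site of the stress factor Yap1. The core promoter box, spelled TATAAA here, is where the general transcription machinery assembles.
YCR102C: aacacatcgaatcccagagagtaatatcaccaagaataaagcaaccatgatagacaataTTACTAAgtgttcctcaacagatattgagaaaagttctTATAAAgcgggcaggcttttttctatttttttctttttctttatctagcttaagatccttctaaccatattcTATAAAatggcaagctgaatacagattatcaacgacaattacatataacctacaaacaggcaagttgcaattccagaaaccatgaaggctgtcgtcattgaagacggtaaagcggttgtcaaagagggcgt
YLR460C: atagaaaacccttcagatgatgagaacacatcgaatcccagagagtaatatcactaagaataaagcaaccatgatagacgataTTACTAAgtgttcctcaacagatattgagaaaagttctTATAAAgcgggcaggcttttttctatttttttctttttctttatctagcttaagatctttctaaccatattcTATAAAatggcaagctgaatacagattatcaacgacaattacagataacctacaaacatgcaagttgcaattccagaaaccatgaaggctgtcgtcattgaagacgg
Set 24 bases apart, 271 of 276 aligned bases were identical, and the longest shared run had 98 bases. TTACTAA on either strand was found in 5 of the 103 promoters (4.9%) and in 7.5% of all 6007 R64 promoters. The 5 ORFs were this pair, YLL056C, YOL159C and YPL278C, of which YLL056C and YOL159C lay within 2-fold and YPL278C had no read in ZK2. AGGGG, the stress response element, was found in 21.4% of the 103 promoters and 21.6% of all, and TATAAA in 48.5% and 45.2%. The drug response element TCCGCGGA and the repressor site URS1, searched as TAGCCGCC, were found in 0 of the 103, against 0.2% and 1.2% of all. A match describes these letters and not a bound site.

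Of the 12 ORFs in the list of oxidoreductases, reductases and dehydrogenases, 11 had 20 reads, 2 were higher and 5 lower, with a median log2 ratio of -0.00. Over all genes 8.17% were higher and 11.7% lower. Among the lower 5, YMR315W is a known oxidoreductase, YFL054C is a channel, and YPL277C and YPL278C are copper-regulated ORFs not known as oxidoreductases. YJR154W, of unknown function, had 95 reads in BYZ1 and 21 in ZK2, an RPKM of 19.5 against 4.41, and was 4.41-fold lower (ratio 0.227, 0.134 to 0.367). YPL278C had 21 reads and 0, at least 6.83-fold lower at the floor, but 80.8% of its windows also lie in YOR389W and its BYZ1 reads covered 31.7% of it.

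Of the 46 ORFs in no list 27 had 20 reads, 4 were higher and 5 lower (8.17% and 11.7% over all genes), with a median log2 ratio of -0.05. YEL067C, of unknown function, had 62 reads in BYZ1 and 152 in ZK2, an RPKM of 22.5 against 56.6 (ratio 2.51, 1.86 to 3.43). It overlaps *HPA3* (236 and 337 reads, log2 ratio 0.55), and reads from that overlap cannot be separated. YOL159C-A, a small ORF of unknown function, had 16 and 35 reads, an RPKM of 12.5 against 28.0 (2.24, 1.21 to 4.34). YMR321C, a fragment like a methyltransferase, had 1 and 35 reads, and its ratio of 35.9 had an interval from 6.03 to 1457. Of its windows 69.3% also lie in *SAM4*, as in the sequence shown above, and coverage was 15.4% and 46.9%.

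Among the lower ORFs of no list, YKR106W, now *GEX2*, encodes a glutathione exchanger of the vacuole and plasma membrane. It had 46 reads in BYZ1 and 2 in ZK2 (ratio 0.0446, 0.00524 to 0.170), with 60.9% of its windows shared with *GEX1* and coverage of 41.3% and 5.30%. YAL064C-A, now *TDA8*, had 21 and 1 reads (ratio 0.0488, 0.00118 to 0.304), with coverage of 82.9% and 12.9%. YNR065C, similar to the vacuolar sorting receptor family of *VTH2*, had 221 and 98 reads, and its ratio of 0.455 (0.355 to 0.579) came within 2-fold under the TMM factor. The Ty1 ORF YHR214C-B had 33 reads in BYZ1 and 0 in ZK2 and was at least 10.7-fold lower, but these covered 1.73% of its length, and 1.89% of its windows were unique.

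Many of the better known ORFs lay within 2-fold. YDR539W, now *FDC1* for ferulic acid decarboxylase, had 244 and 173 reads (ratio 0.727). YHL039W, now *EFM1*, a methyltransferase of a translation elongation factor, had 219 and 318 (1.49), and YBL104C, now *SEA4* of the SEA complex, had 223 and 199 (0.915). YFR045W, now *MRX20*, with 138 and 254 reads and a ratio of 1.89, passed 2-fold under the TMM factor, as did YML131W and YER188C-A (18 and 33 reads, ratio 1.88). Of the 2 ORFs of the DUP and COS list, YHL044W, now *DFP4*, had 76 and 63 reads (ratio 0.850, 0.599 to 1.20) and YHL042W had 33 and 32 (0.994, 0.592 to 1.67). These membrane protein families fill many chromosome ends, and neither ORF shared a window with another gene.

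Some ORFs of the BYZ1 table were not listed in ZK2 at all. The members had to have a read in BYZ1, so this count runs one way. Of the 104 ORFs 20 (19.2%) were not listed in ZK2, where 1.66% of all BYZ1 genes were not. Among the 58 with 20 or more BYZ1 reads it was 5 (8.62%), against 0.357% of all genes. Of the genes with standard names in the same windows 22 (9.32%) were not listed, and of the systematic symbols elsewhere 4.68%. With 20 or more BYZ1 reads these became 9 of 198 (4.55%) and 4 of 656 (0.610%). In reverse, 28 genes were listed in ZK2 only (0.500% of its genes), *URA3* among them. Of these, 18 have systematic symbols, and 5 of the 18 lie within 30 kb of an end in R64 by the same measure, with 1 or 2 reads each. The 3 of the 18 with most reads, YBR196C-B (7), YGL230C (5) and YMR272W-B (5), do not lie near an end. A lost gene, a sequence too different for its reads to be placed and a gene with less RNA give the same absence and cannot be told apart.

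Several ORFs with reads in BYZ1 and none in ZK2 lay next to each other in the order of genes listed for BYZ1. On the left arm of chromosome 6, between 14793 and 29629 (14837 bp), 5 neighbouring genes had 486 reads in BYZ1 and none in ZK2. They were *AAD6* (45 reads), *AGP3* (140), YFL054C (213), *DAK2* (24) and YFL052W (64). YFL054C, now *AQY3*, a channel similar to the glycerol channel Fps1, had an RPKM of 23.4 (20.4 to 26.8) with 99.0% of its length covered in BYZ1, and was at least 69.2-fold lower in ZK2. YFL052W, now *ZNF1*, a zinc cluster factor of respiratory growth, had an RPKM of 9.77 with 83.5% covered and was at least 20.8-fold lower. All 49-base windows of both ORFs were unique. The next gene inward, YFL051C, lies just outside the 30 kb limit and had 31 reads in BYZ1 and 12 in ZK2.

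On the left arm of chromosome 15, between 1647 and 10765 (9119 bp), 5 neighbouring genes had 272 reads in BYZ1 and none in ZK2. They were *AAD15* (1 read), YOL164W-A (6), *BDS1* (226), YOL163W (31) and YOL162W (8). *BDS1* encodes a sulfatase, and YOL163W and YOL162W are neighbouring ORFs of the Dal5 subfamily of transporters. YOL163W had an RPKM of 13.0 with 91.0% covered in BYZ1 and was at least 10.1-fold lower. Of the 4 ORFs of the transporter list 3 were thus not listed in ZK2 (YFL054C, YOL162W and YOL163W), 2 of the 3 with 20 reads were lower, and the median log2 ratio was -3.33 with YFL054C and YOL163W at their bound. The fourth, YKR104W, had 17 and 20 reads (ratio 1.21, 0.600 to 2.45). Only runs that hold at least 1 of the 104 ORFs were counted, and runs of standard-named genes alone also occur in the same windows. The other runs counted rested on few reads, with 17 over 2 genes on the left arm of chromosome 7, 4 over 3 on the left arm of chromosome 6 and 3 over 2 on the right arm of chromosome 1.

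**Figure D3:**
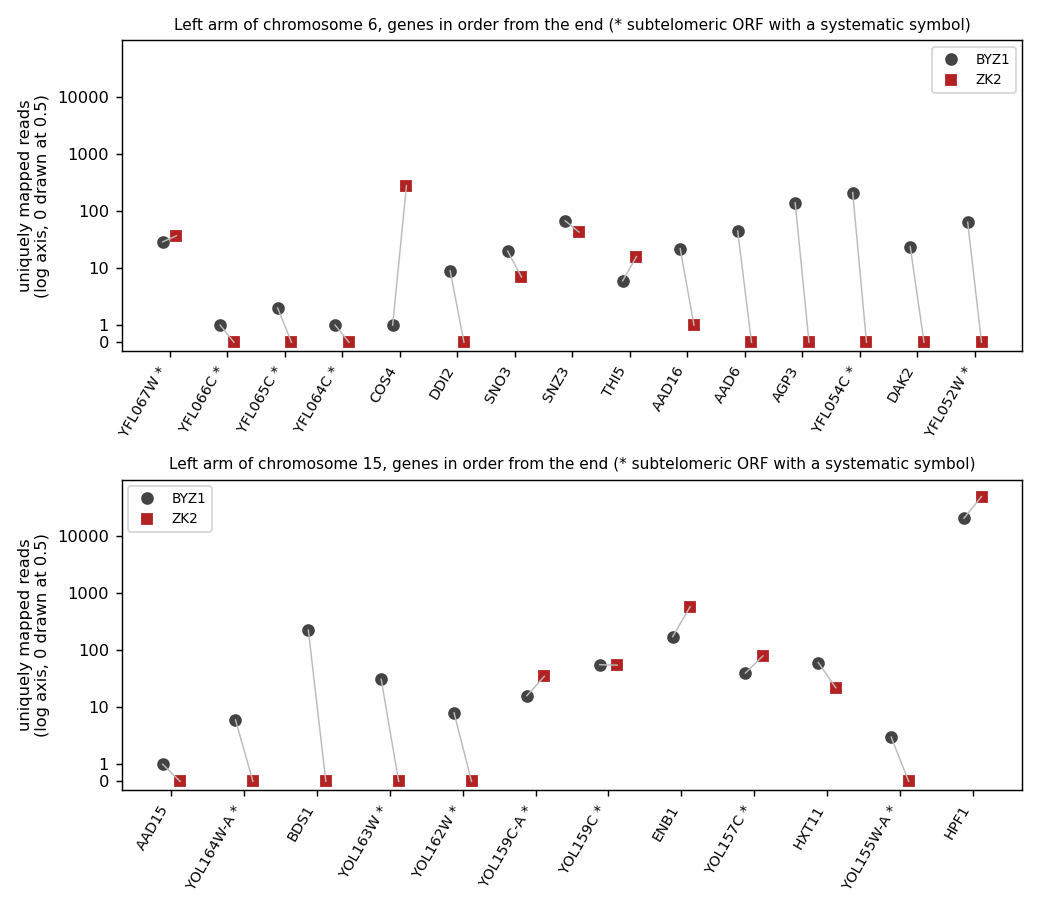
Uniquely mapped reads (log axis, 0 drawn at 0.5) of each listed gene in order from the end on the left arms of chromosomes 6 and 15, BYZ1 as dark circles and ZK2 as red squares, with stars on the subtelomeric ORFs. From *AAD6* to YFL052W and from *AAD15* to YOL162W, BYZ1 had 486 and 272 reads and every ZK2 point lies at 0.

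The Y' element ORFs had a median coverage of 14.1% in BYZ1 and 8.05% in ZK2. Of the 15, 5 had 20 reads, 1 was higher and 1 lower, and 6 were not listed in ZK2. All 15 had under 80% of their windows unique, with a median of 7.54%, and coverage was lower in ZK2 in 14 of them and higher in 0. Their reads summed to 393 in BYZ1 and 561 in ZK2. YHL050C, also helicase-like, had 57 and 229 reads, an RPKM of 5.81 against 23.9 (ratio 4.12, 3.07 to 5.61), while its coverage was 25.5% and 17.9%. YPR204W, a helicase-like ORF, had 34 and 2 reads (0.0603, 0.00702 to 0.235), and its 34 reads covered 2.26% of its length. YBL113C, whose repeat is shown above, had 126 and 134 reads (1.09, 0.849 to 1.40), and YEL077C had 110 and 144 (1.34, 1.04 to 1.74). Which of the ends gave these reads cannot be told from the counts.

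In several ORFs the reads of ZK2 were more, but lay on a smaller part of the ORF. Of the 22 ORFs with 20 reads in both libraries and a higher RPKM in ZK2, 7 (31.8%) had coverage more than 5 percentage points lower in ZK2, where 2.65% of all such genes did, a count chosen after the values were seen. They were YBL113C, YEL077C, YFL067W, YHL050C, YIL169C, YOL157C and YOR389W. In YHL050C the mean depth over the covered bases was 5.23 in BYZ1 and 30.0 in ZK2. In YBL113C it was 8.23 and 22, with coverage of 31.5% and 12.6%. All but YIL169C had under 80% unique windows. The trait was not limited to these ORFs. Among genes with standard names near the same ends, *COS1*, *COS5*, *COS6* and *SEO1* also had a higher RPKM and coverage more than 5 percentage points lower in ZK2. In *COS7* and *COS9* both RPKM and coverage were higher in ZK2. The share of such genes with the trait was not computed. Over all 104 ORFs coverage was lower in ZK2 in 66 and higher in 36, with a median difference of -3.28 percentage points. Over all genes it was lower in 2638 and higher in 2763, with a median of 0.00. The 104 had to have a read in BYZ1, which by itself leans coverage toward BYZ1. In the 62 with 80% or more unique windows the median coverage was 84.2% and 77.7%, and in the other 41 it was 25.5% and 12.6%. Of these 41 ORFs 13 were not listed in ZK2 (31.7%), and of the 62 it was 7 (11.3%).

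**Figure D4:**
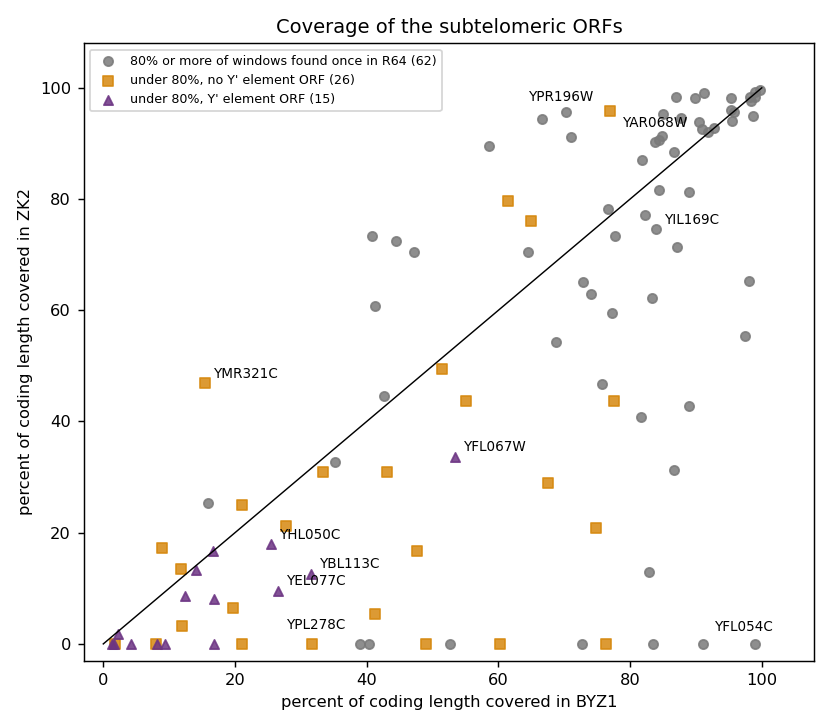
Percent of the coding length covered by reads in BYZ1 (horizontal) and ZK2 (vertical) for 103 subtelomeric ORFs, by symbol for those with 80% or more unique 49-base windows (62), those under 80% outside Y' elements (26) and the Y' ORFs (15). The 15 Y' ORFs lie at or below 53.4% in BYZ1, none of them higher in ZK2, and YFL054C lies at 99.0% in BYZ1 and 0 in ZK2.

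Median reads were higher farther from the chromosome end in both strains. On right arms this distance was counted from the largest listed gene end, so the true distance can be longer. The 44 ORFs in the first 10 kb had a median of 11 reads in BYZ1 and 2 in ZK2, the 35 from 10 to 20 kb 43 and 32, and the 25 from 20 to 30 kb 64 and 51. The median coverage was 36.8% and 16.7%, then 81.8% and 72.4%, then 83.3% and 73.3%. The share of ORFs under 80% unique fell over the same bins, from 67.4% to 25.7% and 12%, and its part in the reads was not tested. In the first 10 kb 13 ORFs (29.5%) were not listed in ZK2, against 4 and 3 farther in. The 20, 24 and 20 tested ORFs gave 3, 4 and 4 higher and 5, 7 and 4 lower, with median log2 ratios of 0.09, -0.18 and 0.04. Over all genes 8.17% were higher and 11.7% lower. Just inside the 30 kb limit lay YBL100W-B (34 and 19 reads), YBL100W-C (1 and 3) and YFL052W. Within the next 2 kb outside it lay 8 ORFs with systematic symbols, which by BYZ1 reads ran from YDR524W-C (18 and 85 reads) to YDR524C-B (1046 and 1723).

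**Figure D5:**
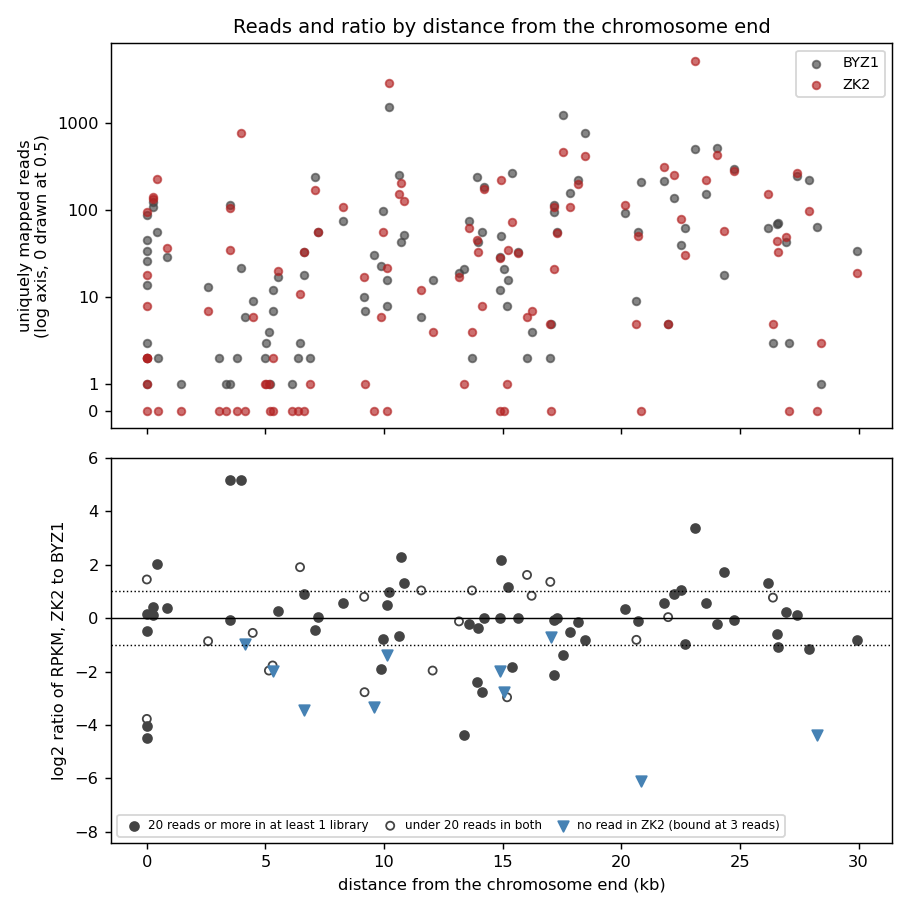
Uniquely mapped reads (top, log axis, 0 drawn at 0.5) and log2 ratio of RPKM of ZK2 to BYZ1 (bottom) of the subtelomeric ORFs against distance from the chromosome end in kb. On right arms the distance runs from the largest listed gene end. Open points have under 20 reads in both libraries and triangles are bounds for ORFs with no read in ZK2. Zero reads in ZK2 are most frequent in the first 10 kb (13 of 44), and log2 ratios above and below 0 occur in every bin.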

How the data were processed

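Poly(A) RNA from 1 sample of each strain was sequenced on an Illumina HiSeq. Before alignment the authors discarded adapter reads and reads in which over 50% of base calls had a quality of at most 5. For BYZ1, SOAPAligner placed the others on S288c genes with up to 2 mismatches. Its version, and the aligner used for ZK2, are not given in the sources used here. The build is sacCer2 per the submitters' processing notes. The deposited read count is the number of uniquely mapped reads per gene, and the deposited RPKM divides it by coding length and total gene reads, which was recomputed to within 3.6e-06. The deposited percent of each gene covered was used as given.

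Gene coordinates and neighbours were taken from the BYZ1 table, where genes with no read are missing. Standard names and sequences came from R64. Ratios of RPKM were computed with Python 3.11.15, numpy 2.4.6, pandas 2.3.3 and scipy 1.17.1, and edgeR 4.0.16 in R 4.3.3 gave the TMM factor alone. The steps were tested on simulated Poisson counts. The changes put in were larger than 2-fold and lay in genes with more reads than most of these ORFs had. How well 2-fold changes are called at low counts was thus not tested. The ORFs and lists were chosen with earlier results of these data known. Named were the 10 highest and 10 lowest ratios, the 10 of highest RPKM in BYZ1, those with 20 or more reads in BYZ1 and none in ZK2, the extremes of each list and the 3 ORFs with systematic symbols that had most reads among genes listed in ZK2 only. Others were named after their values were seen. Alternatives were other scales, read filters, pseudocounts, folds, window sizes and a limit on shared sequence.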

Additional observations from a re-analysis of the deposited data

How the results depend on the processing

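These counts change with the number of ORFs tested, which was 64 with 20 reads. With a filter of 50 reads 9 of 46 ORFs were lower in ZK2 (11.3% of all genes), where 16 of 64 were with 20 reads. With no filter 17 of 89 were higher (8.44% of all genes) and 25 of 89 lower (12.3%). The count of higher ORFs, 11 of 64, became 7 of 44 with a window of 20000 bp and 19 of 89 with a window of 40000 bp. It was 7 of 49 among ORFs with 80% or more unique windows alone. The share of all genes beside each of these counts was 8.17%. At 3-fold 7 of 64 were higher and 13 of 64 lower, where 3.34% and 3.56% of all genes were. Among the 55 ORFs with an RPKM of 10 or more, 10 were higher with a pseudocount of 1 and 7 with a pseudocount of 5, where 7.91% and 6.54% of all genes were. The 20 of 104 ORFs not listed in ZK2 became 7 of 62 among those with 80% or more unique windows. They became 7 of 70 among those with at least 10 reads in BYZ1. Without a limit 1.66% of all BYZ1 genes were not listed, and the share of all genes under these limits was not computed. The median coverage difference became -0.09 percentage points in the ORFs with 80% or more unique windows. The median log2 ratio was -0.05 and turned to 0.12 with the TMM factor or the median of gene ratios as scale. Under both scales YNR065C and YPL272C left the lower group and YER188C-A, YFR045W and YML131W joined the higher, and a pseudocount of 5 lost YLR460C, YNR065C and YOL159C-A. No ORF called higher or lower and chosen by the rule for named genes changed sign, but with the TMM factor 3 within 2-fold did, YMR310C from -0.05 to 0.13, YHL042W from -0.01 to 0.17 and YIR035C from -0.00 to 0.17 on the log2 scale, and the median of gene ratios gave 0.12, 0.16 and 0.17. No paired analysis was possible because each strain has 1 library, and for the same reason no replicate could be left out. Depth limits the 40 ORFs under 20 reads, for which no difference was called.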
